A study of Mus musculus with 6 samples.

Results

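The semaphorins, ephrins, netrins and slits are 4 families of guidance cues, and they were examined here together with their plexin, neuropilin, Eph, DCC, UNC5 and Robo receptors. Members were chosen by the gene name that the array gives to each transcript probe, namely Sema, Plxna to Plxnd, Epha, Ephb, Efna, Efnb, Ntn or Robo followed by a number where the family is numbered, and the names *Nrp1*, *Nrp2*, *Slit1*, *Slit2*, *Slit3*, *Unc5a* to *Unc5d* and *Dcc*. The rule found 71 of 37074 gene names, which were carried by 170 of 56605 probes. It also took in *Plxna4os1* and *Plxna4os2*, RNAs transcribed antisense to *Plxna4*, which are counted with the plexins by their name. The rule uses gene names and no measured value, but it was chosen with earlier results of these data known.

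Guidance cues were first described in the developing nervous system, where they attract or repel growing axons. Secreted class 3 semaphorins signal through neuropilins and plexins, the membrane-bound semaphorins mostly bind plexins directly, netrins bind DCC, neogenin and UNC5 receptors, and slits bind Robo receptors. Ephrins sit on the cell membrane and signal in both directions on contact with Eph receptors on a neighbouring cell. In bone, osteoclasts and osteoblasts use several of these pairs to restrain or promote each other: ephrin B2 on osteoclasts with EphB4 on osteoblasts, Sema4D from osteoclasts with plexin B1 on osteoblasts, Sema3A from osteoblasts with neuropilin 1 and plexin A1 on osteoclast precursors, and *Slit3* with *Robo1*.

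Osteoclasts were grown from bone marrow of 3 Ano1fl/fl mice, whose *Ano1* gene carries loxP sites but is otherwise intact, and of 3 Ctsk-Cre;Ano1fl/fl littermates, which also carry Cre under the cathepsin K promoter. *Ano1* encodes a calcium-activated chloride channel, and cathepsin K is switched on as osteoclasts mature, and all 6 mice carried the floxed allele. The study used mice of 6 to 8 weeks for such cultures, M-CSF at 10 ng/ml for the first day and then RANKL at 50 ng/ml with M-CSF at 30 ng/ml, and the cultures on the arrays had received RANKL for 5 days. Each mouse gave 1 one-colour Agilent array. The groups are called control and cKO arrays below, after their labels, with values in the order of replicates 1, 2 and 3. Nothing in the labels says that the replicate numbers pair a control with a cKO mouse.

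All 6 arrays shared 1 slide and 1 scan. The scanner software marked between 33480 and 34951 of 59305 transcript spots on an array as well above background, and marked no spot as saturated. Arrays of the same group correlated with r between 0.995 and 0.997 over probes, and arrays of different groups with r between 0.947 and 0.951. The probe of the targeted gene *Ano1* was well above background on none of the 6 arrays, with processed signals between 3.23 and 3.91, so the genotypes could not be checked. Every direction below follows the labels and would turn if the labels of the groups were exchanged. RNA of osteoclast markers was measured in both groups. The summed signal of 13 osteoclast markers lay between 178393 and 192632 on the control arrays and between 559485 and 630810 on the cKO arrays. Of the 13, 10 were more than 2-fold higher on the cKO arrays, where 9.88% of all genes tested were. *Tnfrsf11a* was called lower, with a difference of -0.40 on the log2 scale. On the control arrays *Acp5* was the brightest of the 13, with a mean of 16.87. *Calcr*, above background on 2 of 3 control arrays, had means of 4.12 there and 13.01 on the cKO arrays, and *Oscar* had 6.95 and 13.43. *Ctsk*, the gene whose promoter drives Cre, differed by 3.17 on the log2 scale and *Mmp9*, a matrix protease of osteoclasts, by 4.36. *Acp5* and *Nfatc1* differed by 0.84 and 0.53 (limma, adjusted p = 0.000227 and 0.00348). The study gives the opposite direction for *Ctsk*, *Mmp9*, *Acp5* and *Nfatc1* in such cultures, and whether the labels were exchanged could not be tested. Osteoclasts, precursors and other marrow cells were measured together in such cultures, so more cells of a type and more RNA per cell cannot be told apart.

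Values are quantile-normalized log2 signals of the probe, so that a step of 1 is a factor of 2. To be tested, a gene needed a probe well above background on all 3 control or all 3 cKO arrays, and adjusted p-values are from limma with Benjamini-Hochberg correction over all 20645 genes tested. With 3 arrays against 3, an exact permutation test of a single gene could not go below p = 0.1. Of the 71 guidance genes, 53 were tested and 41 were well above background on all 6 arrays. The other 18 were not tested, 16 of them because no array showed them well above background.

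Of the 41 guidance genes measured on all 6 arrays, 10 rose by more than 2-fold in the cKO cultures, beside 7.00% of all 18644 genes measured so, and 4 fell, beside 5.77%. The 4 that fell were *Robo3*, *Plxna4os1*, *Sema5a* and *Dcc*. *Plxna4os1* is an antisense RNA, *Sema5a* rests on 1 of 8 probes, and the *Dcc* probe is a repeat and no measure of *Dcc*. Over all 53 tested, at an adjusted p under 0.05 and more than 2-fold, 20 of 53 rose, where 9.88% of all genes tested did, and 5 fell, where 7.19% of all genes did. Without the fold threshold 24 rose, against 23.4% of all genes, and 10 fell, against 29.0%. The remaining 19 were not called. The 3 control and 3 cKO values did not overlap for 37 of the 53, while 64.0% of all genes tested had groups that did not overlap. The median difference was 0.25 on the log2 scale, beside -0.06 over all genes tested.

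A gene that is above background in only 1 group had to differ in order to be tested, and such genes make up part of the counts over the 53. The count of genes over 2-fold also depended on the background correction. With normexp correction of the raw spot means, 12 guidance genes rose and 2 fell by more than 2-fold, beside 6.37% and 3.23% of all 20642 genes tested so. Where this correction, or averaging the probes that a gene has instead of reading its brightest, changed a fold by over 1.5 times, its log2 difference is given beside the value. The bounds written below as "at least" hold for the processed signals alone. For the 9 guidance genes given as bounds, the normexp differences were all smaller in size than the bound, from 0.27 for *Sema3d* to 2.57 for *Sema3b*.

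**Figure D1:**
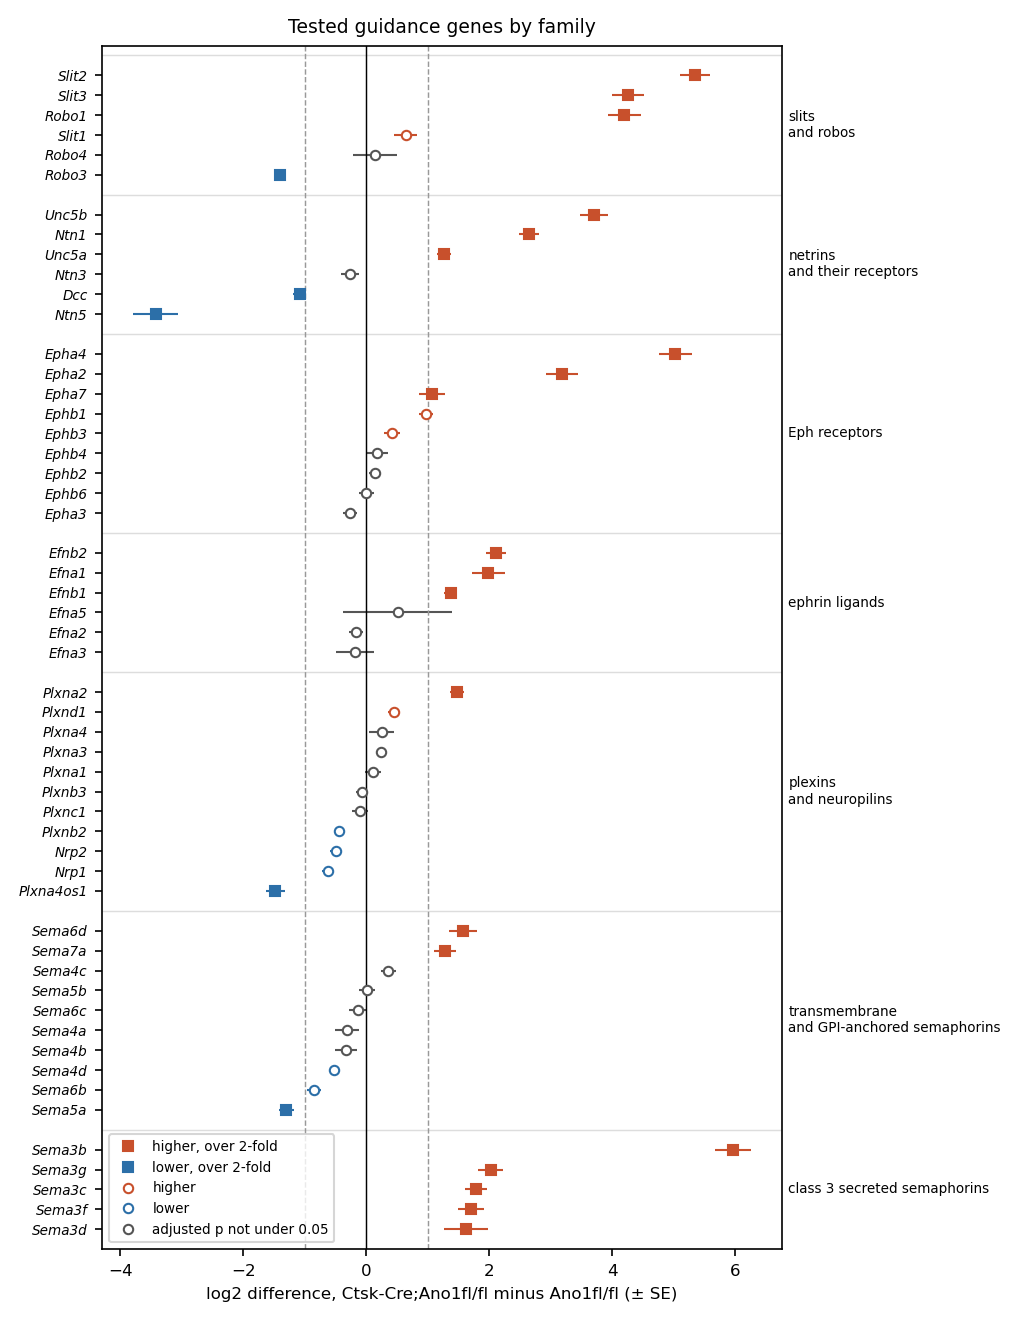
The log2 difference between cKO and control arrays is plotted for each of the 53 tested guidance genes, grouped by family, with the SE of the limma fit as a bar and dashed lines at a 2-fold change. The 9 genes above background in 1 group only (Sema3b, Sema3d, Sema3g, Epha4, Ntn1, Ntn5, Slit2, Slit3 and Robo1) are drawn at their measured difference, which is no level against a level, and of the 2-fold calls among plexins and neuropilins Plxna2 lies right and Plxna4os1 left.

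The class 3 semaphorins are secreted ligands of neuropilins. Of 7 with a probe, *Sema3c* and *Sema3f* were measured on all 6 arrays, and both rose by more than 2-fold, beside 7.00% of all genes measured so. *Sema3b*, *Sema3d* and *Sema3g* were above background on the cKO arrays alone, and so had to differ in order to be tested. *Sema3b*, a ligand that repels axons, read 2.87, 2.64 and 2.56 on the control arrays, none of them well above background, and 8.0, 8.81 and 9.15 on the cKO arrays. All cKO values lay far above all control values. Since the control signal is only a bound, *Sema3b* was at least 25.7-fold higher, with measured means of 2.69 ± 0.16 and 8.65 ± 0.59 (SD, n = 3) and an adjusted p of 3.63e-05 in limma (2.57 with normexp).

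*Sema3g*, a class 3 member best known from endothelial cells, read 3.44, 3.12 and 3.30 on the control arrays, again not well above background, and 5.59, 4.88 and 5.45 on the cKO arrays. Its groups did not overlap and it was at least 2.53-fold higher, with means of 3.29 ± 0.16 and 5.31 ± 0.38 (limma, adjusted p = 0.000469; 0.45 with normexp). Its second probe, above background on no array, differed by -1.12, and with the mean of both probes *Sema3g* was not called (0.45, adjusted p = 0.111). *Sema3d* stood at 3.71, 3.01 and 2.24 against 4.50, 4.84 and 4.48, where the control values spread widely below background and the cKO values were close together. It was at least 1.56-fold higher, with means of 2.99 ± 0.74 and 4.61 ± 0.20 (limma, adjusted p = 0.0107; 0.27 with normexp and 0.54 with the mean of all probes).

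*Sema3c* and *Sema3f*, a ligand that attracts or repels depending on the cell and a repellent that acts through neuropilin 2, were measured in both groups. *Sema3c* gave 4.76, 5.00 and 4.37 on the control arrays and 6.65, 6.51 and 6.31 on the cKO arrays. No control value reached the lowest cKO value, and the gene was 3.44-fold higher (log2 difference of 1.78 ± 0.18, adjusted p = 0.000488, limma; 0.76 with normexp and 1.17 with the mean of all probes). *Sema3f* gave 5.64, 5.18 and 4.76 and 6.91, 6.87 and 6.91, so that the 3 cKO arrays were almost equal while the controls differed from each other. It was 3.26-fold higher (log2 difference of 1.70 ± 0.21, adjusted p = 0.00117, limma; 0.84 with normexp).

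*Sema3a*, the member with the best known part in bone, was too dim to be tested. Its brighter probe was well above background on no control array, at 2.13, 1.73 and 1.72, and was above it on 2 of the 3 cKO arrays, at 4.69, 4.84 and 3.98. The third cKO value was itself not well above background, so no fold is given and no test was made. A second *Sema3a* probe stood in the same order, at 1.76, 1.74 and 1.99 and 4.41, 4.17 and 3.78, and was above background on 1 cKO array. *Sema3e* was well above background on no array.

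**Figure D2:**
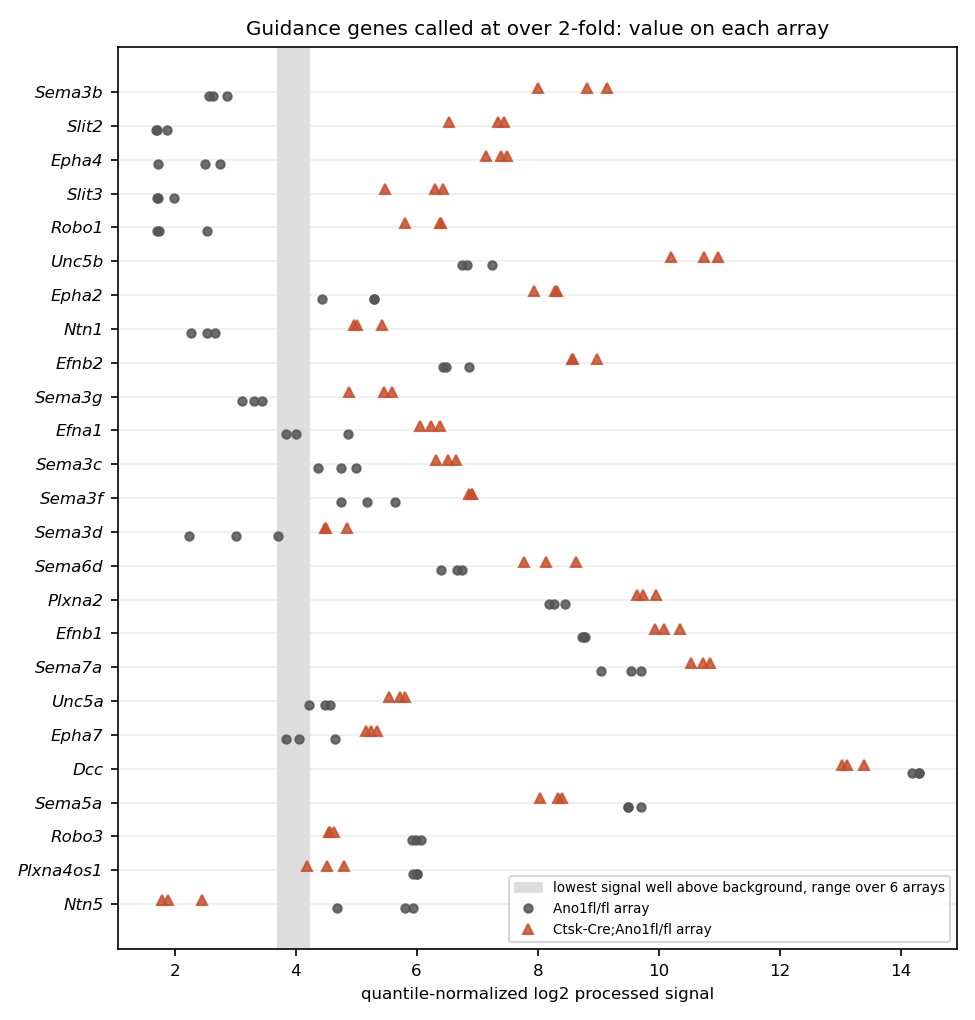
Each point is the quantile-normalized log2 signal of a gene on 1 array, for the 25 guidance genes called at more than 2-fold, with circles for control and triangles for cKO arrays. The grey band spans the lowest signal well above background over the 6 arrays, so circles left of it for Sema3b, Sema3d, Sema3g, Slit2, Slit3, Epha4, Ntn1 and Robo1, and triangles left of it for Ntn5, are bounds and not levels.

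The transmembrane and GPI-anchored semaphorins act mostly on contact. Of 13 with a probe 10 were tested and all 10 were well above background on every array. In limma 2 rose and 1 fell by more than 2-fold, beside 7.00% and 5.77% of all genes measured on all 6 arrays. Of the others 2 fell by less, and 5 were not called. Shares of 10 genes are too coarse to set the family apart from all genes, and its median difference was -0.23 beside -0.06. No array showed *Sema6a*, *Sema4f* or *Sema4g* well above background.

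*Sema6d*, a transmembrane ligand of plexin A1 known for its effect on osteoclast formation, gave 6.41, 6.67 and 6.76 on the control arrays and 8.14, 7.78 and 8.63 on the cKO arrays. The groups were clearly apart, and the gene was 2.97-fold higher (log2 difference of 1.57 ± 0.22, adjusted p = 0.00191, limma; 0.80 with the mean of all probes). Its second probe above background also rose, by 1.16 ± 0.20 on the log2 scale (limma over probes, adjusted p = 0.00350). *Sema7a*, the GPI-anchored semaphorin, which signals through integrins and plexin C1, gave 9.05, 9.70 and 9.54 and 10.54, 10.74 and 10.84. Every cKO array was brighter than every control array, and the gene was 2.42-fold higher (log2 difference of 1.27 ± 0.18, adjusted p = 0.00193, limma).

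*Sema4d*, the semaphorin by which osteoclasts restrain osteoblasts, depended on the probe. The probe that stands for the gene gave 14.38, 14.41 and 14.36 on the control arrays and 13.81, 13.95 and 13.83 on the cKO arrays. The spread within each group was small beside the step between them, and the signal fell by 0.52 ± 0.07 on the log2 scale (limma, adjusted p = 0.00149). A second probe, designed on a predicted transcript, gave 8.05, 8.66 and 8.71 and 9.26, 9.88 and 9.57 and rose by 1.09 ± 0.23 (limma over probes, adjusted p = 0.00817). With the mean of all probes the difference of *Sema4d* was 0.29. The probes lie at chr13:51796617-51796676 and chr13:51780903-51780962 in build mm9, the build of the array files, and so read different stretches of the locus. Their first 30 bases are shown because the sign of the *Sema4d* difference depends on which of them is read, and neither holds a simple repeat or shares 20 bases in a row with a probe of another gene.
Sema4d probe with the lower signal in cKO: tttctacttggaactgtacacatttgaaaa
Sema4d probe with the higher signal in cKO: tgccaaacaggccaattatgcaaaccttca

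*Sema5a*, a semaphorin with thrombospondin repeats, fell, but its value rests on 1 of 8 probes. That probe gave 9.49, 9.49 and 9.70 on the control arrays and 8.34, 8.39 and 8.04 on the cKO arrays, with no overlap, and was 2.47-fold lower (log2 difference of -1.30 ± 0.12, adjusted p = 0.000365, limma). It was designed on a RIKEN cDNA clone, lies at chr15:32493248-32493307 (mm9) and opens with a run of GGT units, in capitals below, while the other 7 *Sema5a* probes were well above background on no array. With the mean of all probes the difference of *Sema5a* was -0.15 (limma, adjusted p = 0.222).
Sema5a probe, bases 1 to 30: GGTGGTGGTGGTgggttttttgtagaagag

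*Sema6b*, which like *Sema6d* binds class A plexins, fell by 0.85 ± 0.11 on the log2 scale (limma, adjusted p = 0.00132). *Sema4a*, *Sema4b*, *Sema5b* and *Sema6c* were not called and their differences ran from -0.33 to 0.00. *Sema4c* was not called through its brightest probe, at 0.36 ± 0.13 (limma, adjusted p = 0.0529), but this probe holds a run of 22 alternating T and G bases and shares at least 20 bases in a row with probes of 50 other gene names. A second *Sema4c* probe without such a run gave 7.12, 6.62 and 6.70 and 8.37, 8.62 and 8.66 and rose by 1.74 ± 0.16 (limma over probes, adjusted p = 0.000304). The third gave 6.03, 5.86 and 6.09 and 6.02, 5.66 and 6.34 and was not called (0.016 ± 0.18, adjusted p = 0.947). The first 30 bases of the 3 probes follow, with the run in capitals, to show how the probe that stands for *Sema4c* differs from its neighbours.
Sema4c brightest probe: aaTGTGTGTGTGTGTGTGTGTGTGttgtaa
Sema4c probe that rose: tgcaaggaagaggtttcaagatgtgggcgt
Sema4c probe not called: tggactgaagtttagaccctgggtgtctgc

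Plexins and neuropilins are the receptors of the semaphorins. Of 13 names 11 were tested, all of them well above background on every array, and the median difference was -0.08, beside -0.06 over all genes. In limma 1 rose and 1 fell by more than 2-fold, beside 7.00% and 5.77% of all genes measured on all 6 arrays. Without the fold threshold 2 rose and 4 fell, beside 23.4% and 29.0% of all genes tested. At any fold the family was called about as often as all genes were. *Plxna2*, a receptor for class 6 and, with neuropilins, class 3 semaphorins, gave 8.46, 8.27 and 8.19 on the control arrays and 9.75, 9.96 and 9.64 on the cKO arrays. The cKO values lay above the controls without overlap and the gene was 2.78-fold higher (log2 difference of 1.48 ± 0.11, adjusted p = 0.000188, limma), and a second probe rose by 1.42 ± 0.11.

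*Plxna1*, the plexin of osteoclasts that pairs with *Trem2* and *Tyrobp*, was not called. It gave 12.94, 12.88 and 12.83 on the control arrays and 13.27, 12.94 and 12.78 on the cKO arrays, which overlap. The difference was 0.11 on the log2 scale, with a 95% interval of -0.21 to 0.43 and an adjusted p of 0.503 in limma, and turned to -0.023 without cKO replicate 1. *Plxnd1*, the plexin bound by *Sema3e*, rose by 0.44 ± 0.10 (limma, adjusted p = 0.0107), and its second probe by 0.49 ± 0.094. *Plxnb2*, a receptor of class 4 semaphorins, fell by 0.44 ± 0.077 (limma, adjusted p = 0.00426).

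The neuropilins, co-receptors for class 3 semaphorins and for VEGF, both fell. *Nrp1* gave 12.88, 13.07 and 13.05 on the control arrays and 12.33, 12.54 and 12.27 on the cKO arrays. The groups did not overlap, and the gene was 1.54-fold lower (log2 difference of -0.62 ± 0.10, adjusted p = 0.00305, limma). All 7 of its probes were lower on the cKO arrays, with differences from -1.79 to -0.29, and 6 of them were called in limma over probes. *Nrp2* fell by 0.50 ± 0.089 (limma, adjusted p = 0.00473) and a second probe by 0.86 ± 0.15.

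*Plxnb1*, the osteoblast receptor for Sema4D, was well above background on no array. Its values were 1.70, 1.78 and 1.72 on the control arrays and 3.49, 3.50 and 3.32 on the cKO arrays, all below the limit, so no fold is given. *Plxna4os1*, the antisense RNA, gave 6.0, 6.01 and 5.93 and 4.18, 4.51 and 4.80 and was 2.79-fold lower (log2 difference of -1.48 ± 0.16, adjusted p = 0.000593, limma; -0.52 with normexp). *Plxna4* itself was not called, at 0.25 ± 0.20 (limma, adjusted p = 0.344). The other plexins not called, *Plxna3*, *Plxnb3* and *Plxnc1*, had differences from -0.10 to 0.25, and *Plxna4os2* was well above background on no array.

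Of 8 ephrin ligands 4 were measured on all 6 arrays, of which 2 rose by more than 2-fold, beside 7.00% of all genes measured so, and none fell, beside 5.77%, and 2 more were tested. *Efnb2*, the ephrin of osteoclasts that takes part in their dialogue with osteoblasts, gave 6.87, 6.49 and 6.44 on the control arrays and 8.59, 8.98 and 8.57 on the cKO arrays. Both groups were tight and far apart, and the gene was 4.33-fold higher (log2 difference of 2.11 ± 0.16, adjusted p = 0.000190, limma). *Efnb1*, the other B ephrin above background, gave 8.73, 8.76 and 8.78 and 10.09, 10.35 and 9.94. Its 3 control values were nearly equal and all lay below the cKO values, and it was 2.58-fold higher (log2 difference of 1.37 ± 0.11, adjusted p = 0.000235, limma).

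*Efna1*, a GPI-anchored ephrin that is a main ligand of EphA2, gave 4.86, 3.84 and 4.01 on the control arrays, of which 1 was well above background, and 6.05, 6.38 and 6.23 on the cKO arrays. No value of one group fell within the other. The measured difference was 1.99 ± 0.27 on the log2 scale (limma, adjusted p = 0.00165), and 0.73 with normexp. It is no exact change, as most control values of *Efna1* were not well above background. *Efna2*, an ephrin made by osteoclast precursors in early differentiation, gave 6.0, 6.36 and 6.18 and 5.88, 6.13 and 6.02, which overlap. Its difference of -0.17 had a 95% interval of -0.46 to 0.12 and an adjusted p of 0.272 in limma. *Efna3* and *Efna5* were not called either, with differences of -0.19 ± 0.31 and 0.51 ± 0.88, and no array showed *Efna4* or *Efnb3* well above background. A second *Efna5* probe, above background on 2 cKO arrays and on no control array, differed by 2.29 and was not tested.

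Eph receptors, the receptor tyrosine kinases bound by ephrins, included 7 measured on all 6 arrays, of which *Epha2* rose by more than 2-fold and none fell, beside 7.00% and 5.77% of all genes measured so. *Epha4* and *Epha7* were above background on 3 cKO arrays but not on all control arrays. Without the fold threshold 5 of 9 were called higher, beside 23.4% of all genes, and these include *Epha4*, which had to be higher, and *Ephb3* with its repeat probe. *Epha4*, which binds both A and B ephrins, gave 2.50, 1.72 and 2.74 on the control arrays, none well above background, and 7.50, 7.39 and 7.14 on the cKO arrays. The 3 cKO values lay close together and far above the controls. *Epha4* was at least 10.4-fold higher, with measured means of 2.32 ± 0.53 and 7.34 ± 0.19 (SD, n = 3) and an adjusted p of 5.24e-05 in limma (1.79 with normexp).

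*Epha2*, a receptor of A ephrins found on both osteoclast and osteoblast lineages, was measured on all 6 arrays. It gave 4.43, 5.29 and 5.30 on the control arrays and 8.33, 8.28 and 7.95 on the cKO arrays. Even the dimmest cKO array exceeded the brightest control, and the gene was 9.05-fold higher (log2 difference of 3.18 ± 0.26, adjusted p = 0.000221, limma; 1.89 with normexp). *Epha7* gave 4.65, 4.05 and 3.84 and 5.16, 5.24 and 5.35, with 2 control arrays above background, and rose by 1.07 ± 0.21 on the log2 scale (limma, adjusted p = 0.00669; 0.31 with normexp and 0.33 with the mean of all probes).

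Among the B receptors, *Ephb1* rose by 0.97 ± 0.11 on the log2 scale (limma, adjusted p = 0.000902), just under the 2-fold line. The call rests on 1 of 2 *Ephb1* probes. The other was well above background on no array and differed by 0.0015. *Ephb4*, the osteoblast receptor for ephrin B2, gave 5.36, 5.27 and 5.17 on the control arrays and 5.50, 5.08 and 5.75 on the cKO arrays, which overlap. Its difference was 0.17, with a 95% interval of -0.25 to 0.59 and an adjusted p of 0.439 in limma. The mean over all 3 *Ephb4* probes gave 0.84 (limma, adjusted p = 0.00542), where the other probes, above background on 1 array and on none, differed by 1.57 and 0.79. *Ephb2*, *Ephb6* and *Epha3* were not called, with differences from -0.27 to 0.14. *Epha1* was above background on 1 cKO array and was not tested, and *Epha5*, *Epha6*, *Epha8* and *Epha10* were well above background on no array.

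The call on *Ephb3*, 0.42 ± 0.12 (limma, adjusted p = 0.0314), rests on a single probe that holds a run of 32 alternating T and G bases and shares 20 bases in a row with probes of 47 other gene names. Its bases 20 to 49 are shown because most of what the probe can bind is this run, in capitals. Of all 56605 probes 181 held such a simple repeat of at least 16 bases, and 4 of them were guidance probes. These stood for 3 of the 53 tested genes, namely *Ephb3*, *Sema4c* and *Dcc*.
Ephb3 probe, bases 20 to 49: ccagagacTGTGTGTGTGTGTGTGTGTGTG

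**Figure D3:**
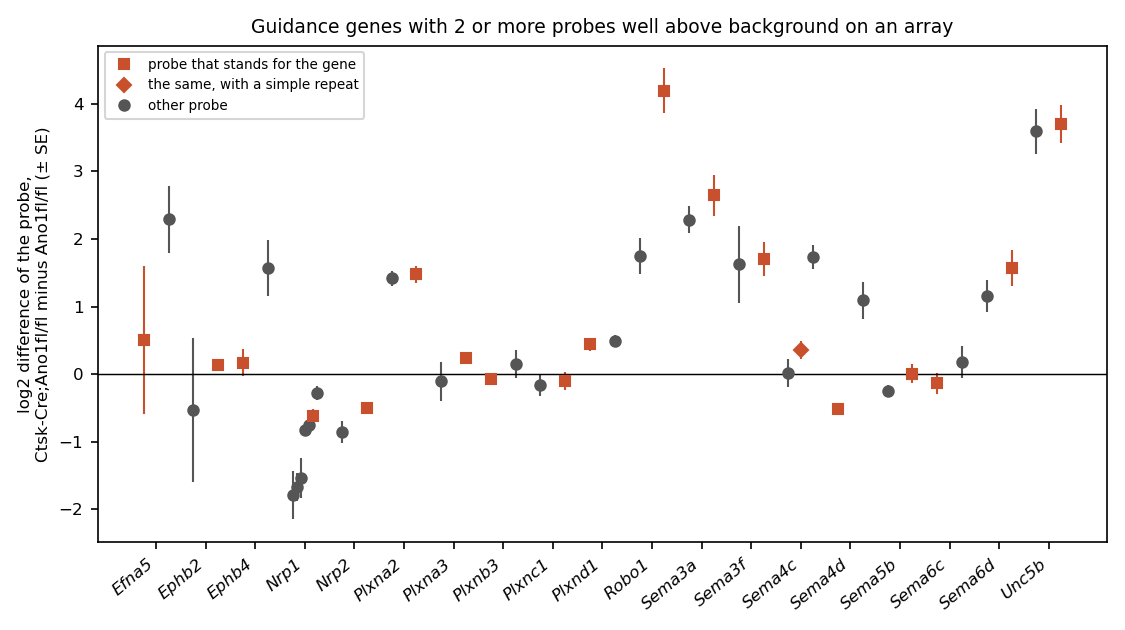
The log2 difference of each probe is plotted for the 19 guidance genes with at least 2 probes well above background on an array, with an SE from the spread of 3 arrays a group as the bar and the probe that stands for the gene in colour. All 7 Nrp1 probes lie below 0 and both Unc5b probes near 3.6, while the probes of Sema4d lie on opposite sides of 0 and those of Sema4c between 0.016 and 1.74.

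Of 9 netrin ligand and receptor genes 4 were measured on all 6 arrays, of which 2 rose and 1 fell by more than 2-fold, beside 7.00% and 5.77% of all genes measured so. The one that fell is *Dcc*, whose call rests on a repeat probe and is no measure of *Dcc*. *Ntn1* and *Ntn5* were each above background in 1 group only. *Ntn1*, the secreted ligand netrin 1, gave 2.67, 2.26 and 2.54 on the control arrays, none well above background, and 4.97, 5.43 and 5.01 on the cKO arrays. The cKO values were only modestly above the background limit, and *Ntn1* was at least 2.25-fold higher, with means of 2.49 ± 0.21 and 5.14 ± 0.26 (limma, adjusted p = 8.42e-05; 0.50 with normexp). *Ntn5*, a little studied netrin, ran the other way. It gave 5.94, 4.69 and 5.80 on the control arrays and 1.79, 1.90 and 2.46 on the cKO arrays, where it was not well above background, and was at least 2.77-fold lower, with means of 5.48 ± 0.69 and 2.05 ± 0.36 (limma, adjusted p = 0.000616; -0.73 with normexp and -2.05 with the mean of all probes).

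*Unc5b*, a netrin receptor that mediates repulsion, was the guidance gene with the largest difference among those measured on all 6 arrays. It gave 7.25, 6.74 and 6.84 on the control arrays and 10.74, 10.98 and 10.21 on the cKO arrays. The groups were separated by several times their own spread, and *Unc5b* was 13.0-fold higher (log2 difference of 3.70 ± 0.23, adjusted p = 8.77e-05, limma). An independent probe at chr10:60227361-60227420 gave 5.34, 4.62 and 4.47 and 8.57, 8.64 and 8.0, a difference of 3.59 ± 0.27 (limma over probes, adjusted p = 0.000163), next to 3.70 for the probe at chr10:60225398-60225457 (both mm9). The first 30 bases of both are given because the largest difference measured in both groups is read here by separate probes, from stretches that share no repeat and no 20 bases with another gene's probe.
Unc5b probe that stands for the gene: cctgttcgtccattctgtaaataacttgta
Unc5b independent probe: ttagggaacgcaaatgatttattatccaga

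*Unc5a*, a second UNC5 receptor, gave 4.23, 4.56 and 4.48 and 5.54, 5.72 and 5.81 and was 2.40-fold higher (log2 difference of 1.26 ± 0.12, adjusted p = 0.000385, limma; 0.44 with normexp), with all cKO values above all controls. *Ntn3* was not called, at -0.26 ± 0.14, and no array showed *Ntn4*, *Unc5c* or *Unc5d* well above background. *Dcc*, the receptor that mediates attraction to netrin 1, was called lower, with 14.19, 14.30 and 14.29 on the control arrays and 13.02, 13.38 and 13.11 on the cKO arrays (log2 difference of -1.09 ± 0.11, adjusted p = 0.000495, limma). This value comes from a probe of which 51 of 60 bases are a GAA repeat, which shares 20 bases in a row with probes of 13 other gene names and which the array files place on another chromosome than *Dcc*. No array showed the other 5 *Dcc* probes well above background, so no *Dcc* transcript was detected outside this repeat probe. With the mean of all probes the difference of *Dcc* was -0.15 (limma, adjusted p = 0.135). When probes with simple repeats were left out, an alternative chosen after seeing the data, 21 guidance genes rose and 4 fell by more than 2-fold, *Sema4c* being added and *Dcc* lost.

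Of 7 slits and Robo receptors 3 were measured on all 6 arrays, of which 1 fell by more than 2-fold, beside 5.77% of all genes measured so, and 1 rose by less, where 23.4% of all genes tested rose at any fold. *Slit2*, *Slit3* and *Robo1* were above background on the cKO arrays alone, and so had to differ in order to be tested. *Slit2*, a secreted repellent, gave 1.71, 1.87 and 1.70 on the control arrays, none well above background, and 7.44, 7.34 and 6.54 on the cKO arrays. All 3 cKO arrays were far above the background limit, and *Slit2* was at least 8.79-fold higher, with means of 1.76 ± 0.10 and 7.10 ± 0.49 (SD, n = 3) and an adjusted p of 2.81e-05 in limma (1.61 with normexp). The other 6 *Slit2* probes were well above background on no array, and the mean of all 7 differed by 0.71.

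*Slit3*, the slit with a known part in bone, gave 1.72, 1.99 and 1.72 on the control arrays, again not above background, and 6.30, 5.48 and 6.43 on the cKO arrays. It was at least 4.29-fold higher, with means of 1.81 ± 0.16 and 6.07 ± 0.52 (limma, adjusted p = 7.97e-05; 1.08 with normexp). *Robo1*, their receptor, gave 1.74, 1.71 and 2.53 and 6.39, 6.38 and 5.80, and was at least 4.67-fold higher, with means of 2.0 ± 0.47 and 6.19 ± 0.34 (limma, adjusted p = 0.000101; 1.05 with normexp). For all 3 genes the control arrays give no level, so the measured differences of 5.34, 4.26 and 4.20 are not folds between levels. A second *Robo1* probe was likewise above background on the 3 cKO arrays alone and was at least 1.76-fold higher, and the mean of all *Robo1* probes, most of them not above background, differed by 0.87.

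*Robo3*, a divergent Robo receptor, had the smallest SE of the 5 genes that fell by more than 2-fold. It gave 5.98, 5.92 and 6.07 on the control arrays and 4.57, 4.56 and 4.63 on the cKO arrays. The groups did not overlap and the gene was 2.66-fold lower (log2 difference of -1.41 ± 0.071, adjusted p = 4.34e-05, limma; -0.60 with normexp). *Slit1* rose by 0.64 ± 0.19 (limma, adjusted p = 0.0291). *Robo4*, the Robo of endothelial cells, was not called at 0.14 ± 0.36, and no array showed *Robo2* well above background.

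The promoters of the genes that rose together were read from RefSeq (build GRCm38.p6), as the 250 bases before and 50 bases after the first listed start of each gene. Of the 20 genes higher by more than 2-fold 17 had an entry. The 4 motifs below were searched on both strands. GGGCGG, the GC box of Sp factors, was in 14 of the 17, or 82.4%, against 75.6% of the 45 tested guidance genes with an entry and 35.9% of all 27025 promoters. TATAAA, the TATA box, was in 2 of 17, or 11.8%, against 4.4% of the tested guidance genes and 14.2% of all promoters. GGAATG, the core of TEAD sites, was in 11.8%, against 11.1% and 14.6%, and TGANTCA, the AP-1 site, was in 0 of 17, against 4.4% and 7.9%. A match is only a stretch of letters and no binding was measured. *Efnb2* and *Slit2* are the pair that hold TATAAA, and the 250 bases before their starts are printed with every match of the searched motifs in capitals, and a match on the opposite strand appears as its reverse complement. The *Efnb2* stretch is chr8:8661243-8661492 on the minus strand, with 3 GC boxes, 1 GGAATG and 1 TATA box, and that of *Slit2* is chr5:47982905-47983154 on the plus strand, with 3 GC boxes and 1 TATA box.
Efnb2: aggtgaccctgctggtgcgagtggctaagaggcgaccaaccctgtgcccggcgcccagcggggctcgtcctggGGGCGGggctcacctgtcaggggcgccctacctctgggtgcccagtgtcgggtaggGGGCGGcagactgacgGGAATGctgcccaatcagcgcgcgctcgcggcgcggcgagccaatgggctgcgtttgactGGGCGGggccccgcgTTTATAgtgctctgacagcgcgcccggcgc
Slit2: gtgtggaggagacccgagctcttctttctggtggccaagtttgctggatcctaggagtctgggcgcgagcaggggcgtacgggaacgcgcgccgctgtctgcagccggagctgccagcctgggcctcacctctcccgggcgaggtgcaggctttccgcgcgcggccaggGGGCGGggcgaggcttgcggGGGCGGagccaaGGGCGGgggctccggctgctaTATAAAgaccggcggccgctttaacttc

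Genes that work with the guidance receptors were taken from 4 lists of co-receptors and effectors. Of 71 listed 67 were tested, and 15 rose and 4 fell by more than 2-fold, beside the 9.88% and 7.19% of all genes. Among the 58 measured on all 6 arrays 8 rose and 3 fell by more than 2-fold, beside 7.00% and 5.77%. Over the 67, without the fold threshold, 32 rose and 14 fell, beside 23.4% and 29.0% of all genes, and 21 were not called, with a median difference of 0.25 beside -0.06. By list, the semaphorin partners had 8 higher and 2 lower of 26, the ephrin and Eph effectors 2 and 1 of 15, the netrin partners 4 and 1 of 15, and the slit and robo effectors 1 and 0 of 11.

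**Figure D4:**
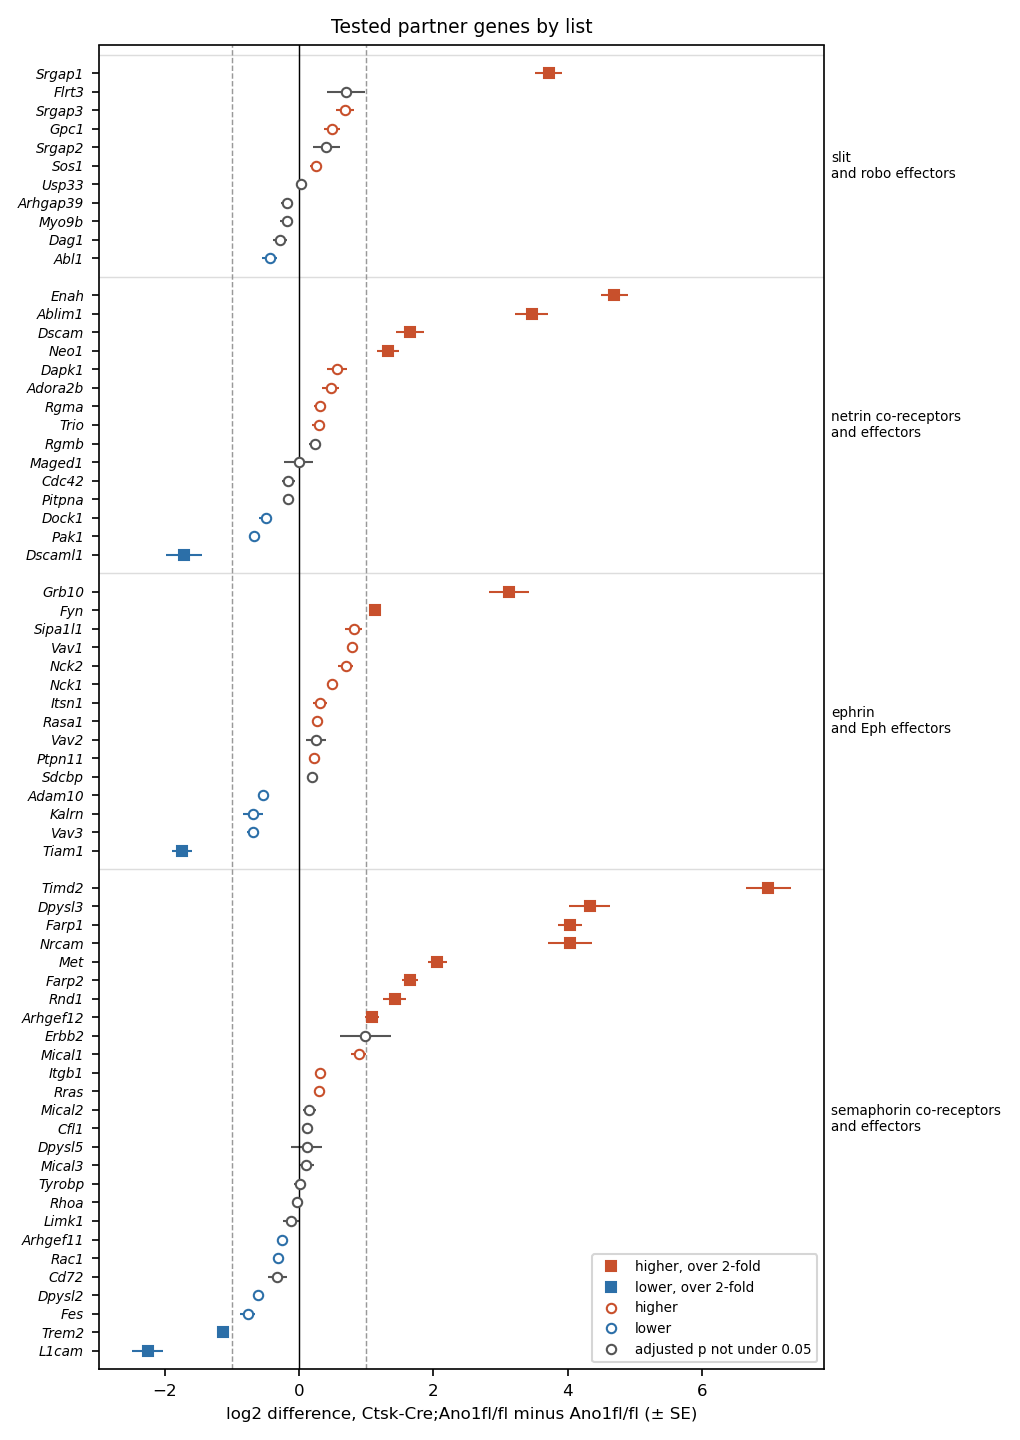
The log2 difference of the 67 tested partner genes is plotted by list with the SE of the limma fit and dashed lines at a 2-fold change. Farp1 lies at 4.03 and L1cam, farthest to the left, at -2.26, while Timd2, Nrcam and Srgap1 are drawn at a measured difference against control signals that were not above background.

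*Timd2*, a receptor that binds Sema4A, gave 1.71, 1.77 and 1.72 on the control arrays, none well above background, and 8.92, 7.92 and 9.32 on the cKO arrays. It was at least 26.9-fold higher, with means of 1.73 ± 0.036 and 8.72 ± 0.72 (limma, adjusted p = 3.63e-05). *Nrcam*, an adhesion molecule that joins neuropilin complexes, and *Srgap1*, a GTPase-activating protein recruited by *Robo1*, were also above background on the cKO arrays alone and were at least 4.71-fold and 7.03-fold higher (limma, adjusted p = 0.000215 and 5.23e-05). Their means were 2.17 ± 0.68 and 6.20 ± 0.11 for *Nrcam* and 3.07 ± 0.40 and 6.78 ± 0.087 for *Srgap1*. With normexp the differences of all 3 genes were below their bounds, at 2.92, 1.00 and 1.28, and with the mean of all probes they were 5.57, 1.00 and 2.02.

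*Farp1*, a protein tied to class A plexins, gave 4.45, 4.69 and 4.55 on the control arrays and 8.87, 8.70 and 8.24 on the cKO arrays and was 16.4-fold higher (log2 difference of 4.03 ± 0.17, adjusted p = 2.31e-05, limma; 2.35 with normexp and 2.85 with the mean of all probes). *Enah*, an actin regulator downstream of netrin and Robo receptors, and *Dpysl3*, one of the collapsin response mediators, rose by 4.69 ± 0.20 and 4.32 ± 0.31 on the log2 scale (limma, adjusted p = 2.42e-05 and 0.000138; 2.57 and 2.48 with normexp, and 2.83 for *Enah* with the mean of all probes), each with 2 of 3 control arrays above background. *Neo1*, or neogenin, a netrin receptor related to DCC that was picked out after its values were seen, was 2.50-fold higher (log2 difference of 1.32 ± 0.17, adjusted p = 0.00126, limma).

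*L1cam*, an adhesion molecule and co-receptor for Sema3A, gave 8.36, 8.17 and 8.02 on the control arrays and 6.44, 5.76 and 5.58 on the cKO arrays and was 4.78-fold lower (log2 difference of -2.26 ± 0.23, adjusted p = 0.000567, limma; -1.53 with normexp). *Tiam1*, a Rac exchange factor bound by Eph receptors, was 3.33-fold lower (log2 difference of -1.74 ± 0.15, adjusted p = 0.000275, limma). *Dscaml1*, a relative of the netrin receptor DSCAM, was above background on the 3 control arrays and 1 cKO array, so its measured difference of -1.72 on the log2 scale is no exact change (limma, adjusted p = 0.00275; -0.43 with normexp and -0.57 with the mean of all probes). *Trem2*, the immune receptor that pairs with plexin A1, gave 16.01, 16.02 and 15.99 and 14.94, 14.88 and 14.79 and was 2.20-fold lower (log2 difference of -1.13 ± 0.069, adjusted p = 7.97e-05, limma). *Tyrobp*, the adaptor of *Trem2* also called DAP12, gave 16.66, 16.53 and 16.62 and 16.71, 16.63 and 16.51, which overlap, with a difference of 0.011 (95% interval -0.19 to 0.21, adjusted p = 0.924 in limma) whose sign turned to -0.078 with scaling to the 75th percentile.

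Read as pairs, each on its own probe scale, ligand and receptor of a pair did not always move alike. *Slit2*, *Slit3* and *Robo1* were all above background on the cKO arrays alone. *Ntn1* and *Unc5b* both rose, while *Neo1* rose and *Dcc* was not measured outside its repeat probe. *Efnb2* rose and *Ephb4* was not called. *Sema3c* and *Sema3f* rose and both neuropilins fell. *Sema6d* rose while *Plxna1* was not called and *Trem2* fell. The difference between the members of a pair was not tested, since their probes have separate scales.

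Markers of other cells in marrow cultures moved as well, and several guidance genes are known from these cells. Over all genes tested 9.88% rose and 7.19% fell by more than 2-fold. A short list with only 1 or 2 calls cannot be set apart from these shares. Of 20 markers of stromal cells and osteoblasts, 18 were tested, and 12 rose and none fell by more than 2-fold, with a summed signal between 24219 and 26521 on the control arrays and between 94231 and 138424 on the cKO arrays. *Col1a1* differed by 6.12, *Alpl* by 5.52 and *Postn*, above background on 1 control array, by 6.50, whereas *Runx2*, *Sp7* and *Lepr* differed by -0.46, -0.081 and -0.69, *Bglap* was above background on 1 array, and *Ibsp* on none. Of 11 endothelial markers 8 were tested, none rose and 2 fell by more than 2-fold, and their sum lay between 4372 and 5429 on the control arrays and between 2335 and 2582 on the cKO arrays, with *Tek* and *Tie1* above background on none. Of 9 Schwann and glial markers 6 were tested, 1 fell and none rose by more than 2-fold, and the sum went from between 33368 and 35912 to between 21991 and 25173, with *Gfap* and *Foxd3* above background on no array. Of 8 neuron markers 6 were tested, 1 rose and none fell by more than 2-fold, with sums between 1830 and 1941 and between 1989 and 2503, and *Rbfox3* and *Stmn2* above background on none. All 6 B cell markers rose by more than 2-fold, with sums between 7503 and 9039 and between 29287 and 56983. Of 9 neutrophil markers 4 fell and none rose by more than 2-fold, and their sum went from between 315219 and 331371 to between 212020 and 264467. Of 7 erythroid and megakaryocyte markers 5 were tested and 3 fell by more than 2-fold, with sums between 118508 and 130900 and between 51080 and 60436. Of 7 T and NK cell markers 2 rose and 1 fell by more than 2-fold, with sums between 2849 and 3110 and between 1304 and 1790. Of 9 macrophage markers 2 fell and none rose by more than 2-fold, namely *Cx3cr1* at -4.62 and *Mrc1* at -1.36, with sums between 521198 and 542969 and between 543438 and 598748. The part of RNA from any of these cells or from osteoclasts in the differences of the guidance genes was not tested.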

How the data were processed

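RNA from 3 Ano1fl/fl and 3 Ctsk-Cre;Ano1fl/fl osteoclast cultures was labelled with Cy3 and hybridised to one-colour mouse arrays. The authors deposited, for each array, the spot intensity values and background marks read by Agilent Feature Extraction 10.7.1.1, and the log2 values used here were computed from these deposited processed intensities, which are background subtracted and detrended within an array but not normalized between arrays. The deposited series matrix equals the raw spot medians (largest difference 0). It served as an alternative only.

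The processed signals were quantile normalized on the log2 scale, as the methods name, in R 4.3.3 with limma 3.58.1. Control spots and outlier spots (143 to 252 on an array) were left out, spots of a probe were averaged, and 14 probes with a missing value were dropped, 1 of them a guidance probe. A probe counted as well above background where at least 0.5 of its spots were. Where several probes carry a gene name, the one with the greatest average signal was read. A bound was computed against the dimmest signal that the software still marked as above background, array by array in the dim group. The groups were compared with lmFit and eBayes, without covariates, at an adjusted p of 0.05. The script was tested on simulated data.

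Probe positions (mm9) and gene names come from the array files. Of 118 guidance probes with a RefSeq accession 115 matched the gene reference, and 0 carried another symbol. Python 3.11.15, pandas 2.3.3 and matplotlib 3.10.9 were used for sequences and plots. Values on each array are given for the guidance genes called at more than 2-fold and for 16 with a known part in bone cells, and the partners named by rule, with values on each array or with means or differences alone, are the 6 with the largest rise, the 6 with the largest fall where as many passed, and Trem2 and Tyrobp. The members, lists and tests were chosen with earlier results of these data known. Alternatives were 75th percentile scaling, the series matrix, normexp correction (offset 50), other filters, other tests, folds of 1.5 and 3, the mean of all probes, a replicate block and leaving out each array. Deviations of arrays with the same number correlated at 0.004, -0.06 and -0.08, so the numbers were not taken to pair the samples.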

Additional observations from a re-analysis of the deposited data

How the results depend on the processing

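Counts over 2-fold are given as higher and lower among guidance genes, partner genes and all genes, where the reported values are 20 and 5, 15 and 4, and 2039 and 1485. Normexp correction gave 12 and 2 guidance genes and 1315 and 666 of all genes, and the series matrix 2 lower guidance genes and 827 of all genes. Asking for all 6 arrays, which tests fewer genes, gave 10 higher guidance genes, 8 higher partners and 1306 of all genes, and the mean of all probes 13 higher guidance genes. At 1.5-fold 9 partners and 3293 of all genes were lower, and at 3-fold 1 guidance gene and 546 of all genes. With no fold threshold 10 guidance genes were lower, 32 partners were higher and 14 lower, and 4839 and 5987 of all genes were called.

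Leaving out each array in turn gave 19 to 21 and 5 guidance genes, 14 to 16 and 4 partners, and 1999 to 2058 and 1427 to 1503 of all genes. A replicate block gave 20 and 5 guidance genes, 15 and 4 partners and 2028 and 1467 of all genes, and same-numbered arrays did not deviate together (0.004, -0.06 and -0.08). The other alternatives moved these counts by less than 1.5 times.

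The sign turned for Sema4d with the mean of all probes (0.29), for Plxna1 without Ctsk-Cre;Ano1fl/fl replicate 1, and for Tyrobp with 75th percentile scaling (-0.078), without Ano1fl/fl replicate 2 (-0.026) and without Ctsk-Cre;Ano1fl/fl replicate 1. Leaving out 1 array gave -0.023 to 0.22 for Plxna1 and -0.035 to 0.064 for Tyrobp. With the mean of all probes, Dcc (-0.15, adjusted p = 0.135), Sema3g (0.45, adjusted p = 0.111) and Sema5a (-0.15, adjusted p = 0.222) were no longer called in limma. Such a mean takes in probes that are not above background. Signals near background limit the folds of the dim genes, which shrink with normexp and the series matrix, and 3 arrays a group limit all of them.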
